A study of Mus musculus with 12 samples.

Results

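The AP-1 family of transcription factors was followed in follicular B cells of mouse spleen, with and without the lysophosphatidylserine receptor GPR174, directly after sorting and after 4 h of culture. The 10 genes were taken by symbol: *Fos*, *Fosb* and *Fosl2* of the Fos family, *Jun*, *Junb* and *Jund* of the Jun family, *Batf*, *Atf3*, and the small Maf genes *Maff* and *Mafk*. All 10 were present among the 12837 genes found in both deposited count tables (13269 genes at 0 h, 13142 at 4 h).

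Male mice carried either the intact X-linked gene (Gpr174+/Y, WT) or an allele in which its single coding exon had been replaced in frame by the tdTomato reporter (Gpr174-/Y, KO). The replacement is in the germ line, so every cell of a KO animal carried it. Cells labelled CD21/35- CD23+ were frozen after the sort (0 h) or kept for 4 h in complete RPMI medium with no added stimulus (4 h). Each of the 4 groups held 3 libraries, 12 in all, from adult animals, with 6098941 to 11618787 assigned reads per library.

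AP-1 proteins are basic leucine zipper (bZIP) factors that bind DNA as pairs. Fos proteins pair with Jun proteins and do not form stable pairs among themselves, whereas Jun proteins can also pair with each other. Which DNA element is favoured depends on the makeup of the pair. *Fos*, *Fosb*, *Jun*, *Junb* and *Atf3* are classical immediate early genes, induced within minutes by growth factor, antigen receptor or stress signals through the MAP kinases, the serum response factor and the cAMP response element binding protein, and their mRNAs are short lived. In lymphocytes, AP-1 pairs act with NFAT and IRF factors at composite sites, where BATF-JUN pairs recruit IRF4 and IRF8.

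Directly after the sort, no AP-1 gene passed the test between the genotypes. After 4 h, 3 were higher in WT than in KO: *Fosl2* by 6.41-fold, *Fos* by 3.17-fold and *Junb* by 1.95-fold. Over the same 4 h *Fos* and *Jun* fell in both genotypes, *Fosl2* rose in both, and *Junb* fell in KO while its level in WT changed by 0.01 ± 0.12 (log2, SE). *Batf*, *Maff* and *Mafk* passed no test in any of the comparisons.

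Before the values, the bases before the RefSeq start of the 3 genes that differed between the genotypes at 4 h are shown. Those of *Fos* and *Junb* hold TGACG, the core of the cAMP response element, and those of *Fosl2* do not. None of the 3 holds the full element. *Fosb*, *Batf*, *Maff* and *Mafk* hold the core too and passed no genotype test. As background, GPR174 couples to Gαs, whose downstream kinase acts on cAMP response element binding protein. Any part of these letters in the genotype differences was not tested. RefSeq sequences on build GRCm38.p6 gave 250 bases before each transcription start, written 5′ to 3′ on the strand of the gene, with every TGACG in capitals. They lie at chr12:85473640-85473889 on the plus strand for *Fos*, at chr5:32136222-32136471 on the plus strand for *Fosl2* and at chr8:84978749-84978998 on the minus strand for *Junb*. The *Fosl2* window lies inside the span that GENCODE gives the gene, and the bases before the GENCODE start were not searched.
Fos: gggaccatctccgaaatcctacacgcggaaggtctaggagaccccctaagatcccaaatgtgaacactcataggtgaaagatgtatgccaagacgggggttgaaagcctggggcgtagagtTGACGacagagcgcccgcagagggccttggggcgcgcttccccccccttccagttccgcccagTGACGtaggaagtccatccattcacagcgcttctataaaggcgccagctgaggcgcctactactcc
Fosl2: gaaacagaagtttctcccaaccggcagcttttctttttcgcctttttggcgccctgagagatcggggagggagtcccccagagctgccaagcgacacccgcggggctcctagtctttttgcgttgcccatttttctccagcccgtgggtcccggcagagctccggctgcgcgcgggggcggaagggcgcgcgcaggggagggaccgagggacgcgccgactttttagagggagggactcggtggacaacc
Junb: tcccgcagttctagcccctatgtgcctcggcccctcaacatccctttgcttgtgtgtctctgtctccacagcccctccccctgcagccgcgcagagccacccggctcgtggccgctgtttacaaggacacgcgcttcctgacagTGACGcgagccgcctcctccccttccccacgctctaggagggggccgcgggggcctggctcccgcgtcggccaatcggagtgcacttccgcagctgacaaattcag

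The letters searched, on both strands, were the cAMP response element TGACGTCA, its core TGACG, the TPA response element TGACTCA and the serum response element. The core is part of the full cAMP element, so each full element also counts as a core. All 10 genes had RefSeq upstream bases, and *Maff* had 3 start sites, which gave 12 windows. The core was found in 7 of 10 genes and 8 of 12 windows. It stood at 129 to 125 and at 66 to 62 bases before the start of *Fos*, at 106 to 102 before *Junb*, at 60 to 56 before *Fosb*, at 98 to 94 before *Batf* and at 41 to 37 before *Mafk*. *Atf3* held it on the opposite strand, 7 to 3 bases before its start. The full element was seen once, 29 to 22 bases before the second start of *Maff*. *Fosl2*, *Jun* and *Jund* had no core in these windows, and the TPA and serum response elements were found in 0 of 12. The *Jund* window ends at 70697738, short of the GENCODE start of the gene at 70698949. The *Atf3* window, 191183334 to 191183583, lies inside the span that GENCODE gives that gene. Bases outside the windows were not searched, so an element farther from a start would be missed. Over all 32851 mouse windows of this length, 17.8% held the core, 1.55% the full cAMP element, 4.46% the TPA element and 1.47% the serum response element. Among the 12029 windows of genes in the count tables those shares were 25.8%, 2.57%, 3.08% and 1.15%. A match gives letters in a window and not a bound site.

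**Figure D1:**
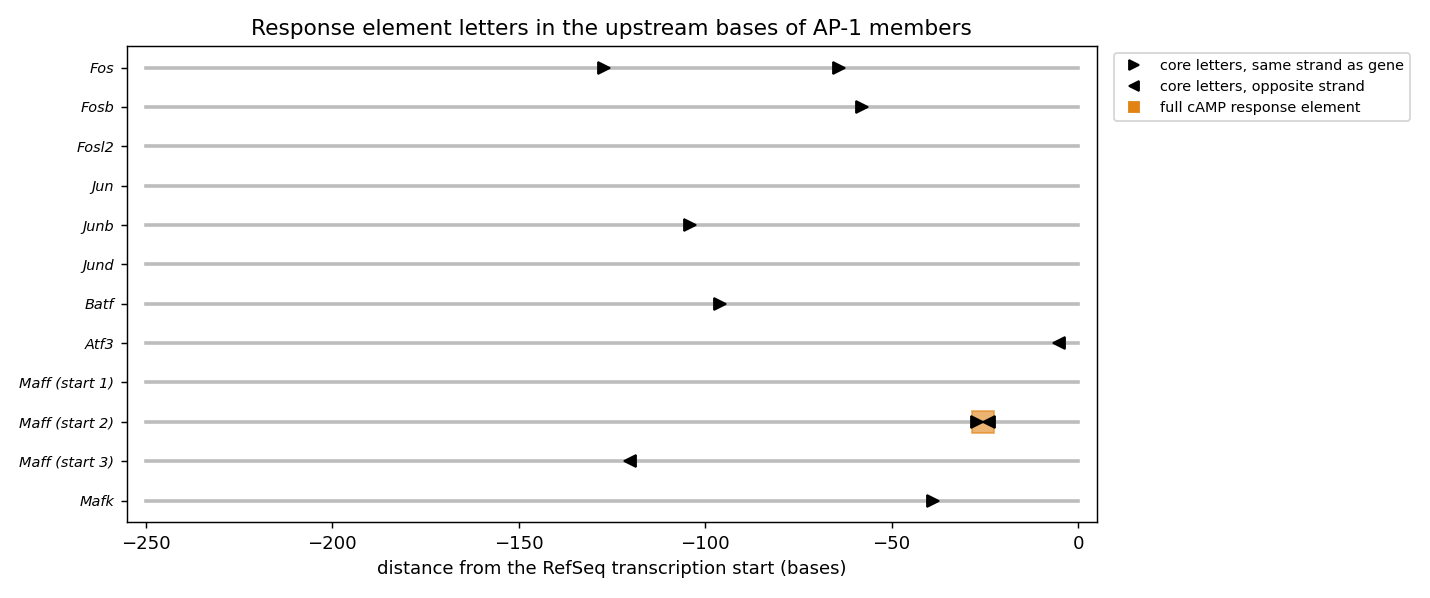
Positions of the cAMP response element core (triangles) and of the full element (square) in the 250 bases before each RefSeq start, with the distance in bases on the horizontal axis and 1 line per start site. *Fos* carries 2 cores and *Junb* 1, while the lines of *Fosl2*, *Jun* and *Jund* are empty.

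Levels are given as CPM, counts scaled to a common library size by TMM, from 1 normalization over all 12 libraries. Differences are log2 fold changes with their SE from edgeR's quasi-likelihood test, and a gene passed where its Benjamini-Hochberg adjusted p over all genes tested was under 0.05. The level of a transcript in such a library mixes RNA per cell with the share of cells that hold it, and fewer expressing cells and less RNA per cell cannot be told apart.

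Some facts on the libraries bear on what follows. *Gpr174* itself ranged from 149.5 to 168.4 CPM in WT and from 73.4 to 118.3 in KO, so every WT library lay above every KO library, and gene-level counts do not separate the replaced exon from the rest of the gene. The first WT replicate at 0 h stood apart for several AP-1 genes, and the values it moved most are also given without it. *Cr2*, which encodes the CD21/35 antigen for which the cells were labelled negative, was present at 873 to 1123 CPM in the 0 h libraries and at 129 to 320 CPM at 4 h.

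**Figure D2:**
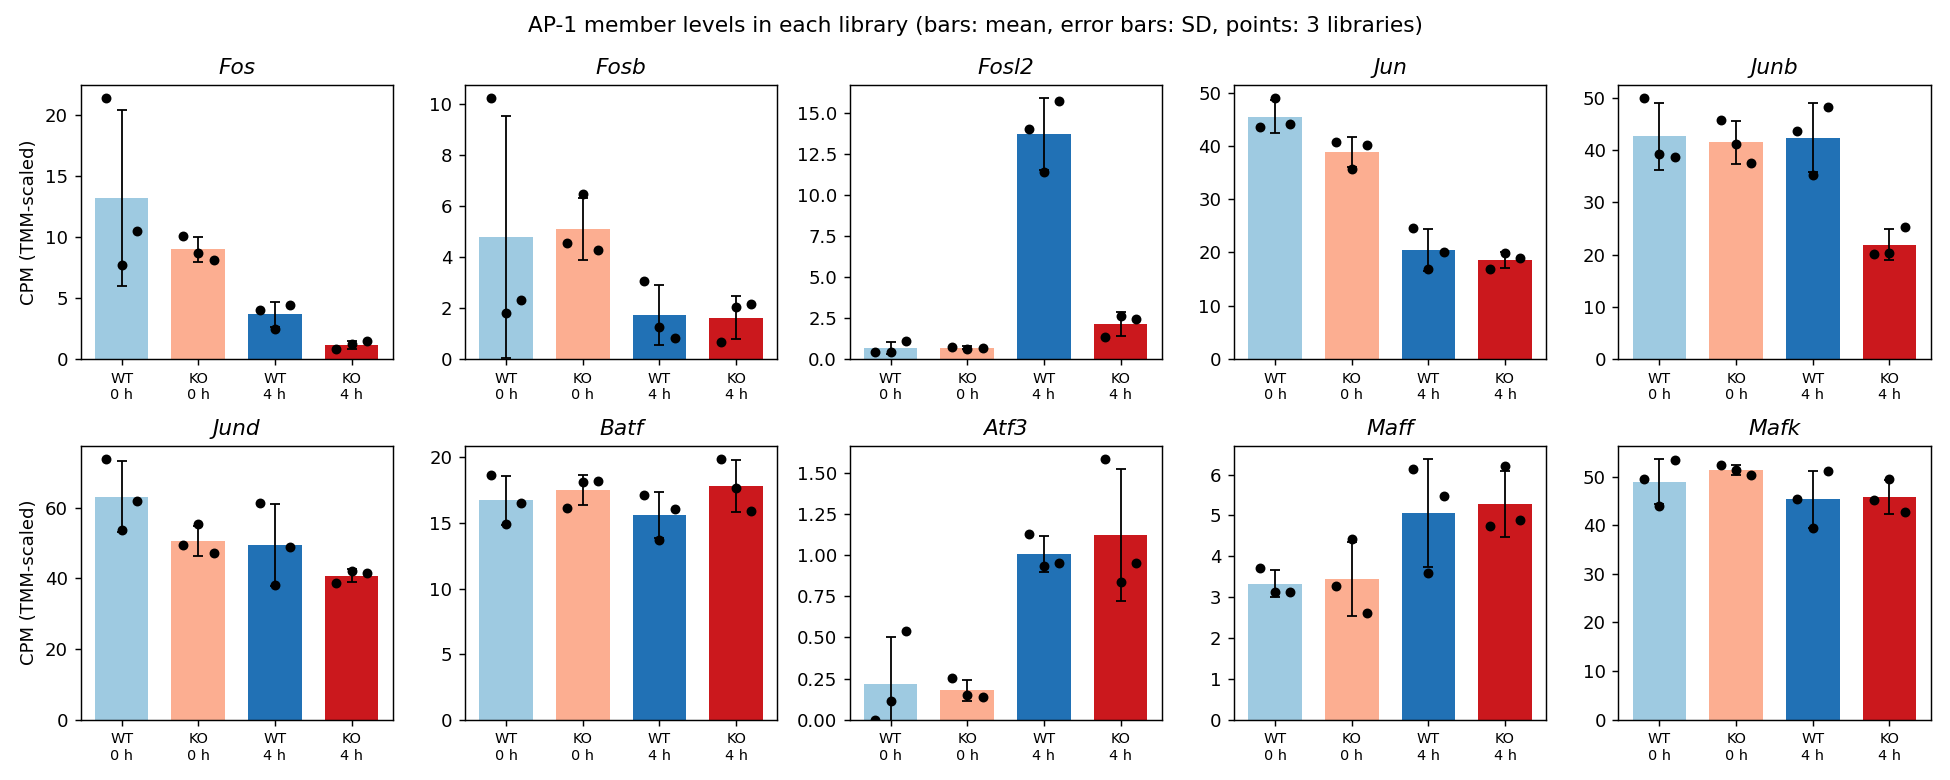
Level of each AP-1 gene in CPM (vertical axes, each from 0 and on its own scale) in WT and KO cells at 0 h and 4 h, with bars for the mean, error bars for the SD and points for the 3 libraries. The lower error bar of *Atf3* in WT at 0 h runs past 0 and is cut there. The 3 WT points of *Fosl2* and *Junb* at 4 h lie above the 3 KO points, and the first WT replicate at 0 h is the top point for *Fos* and *Fosb*.

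*Fosl2* encodes FRA2, a Fos family protein that lacks the strong activation domain of FOS and whose mRNA typically appears later and lasts longer. It lies at 32135801 to 32157842 on chromosome 5 (plus strand, GRCm38) with 4 coding exons. At 0 h it had 4, 4 and 12 reads in the WT libraries and 6, 4 and 5 in the KO libraries, under the minimum for the test at that time. With no minimum, the 0 h difference was -0.02 ± 0.68 (edgeR adjusted p 0.994). At 4 h its level was 14.0, 11.4 and 15.7 CPM in WT and 1.32, 2.63 and 2.44 CPM in KO. The KO values rest on 10, 22 and 18 reads, and *Fosl2* met the minimum for the 4 h genotype test through its WT libraries. Every WT library at 4 h stood above every KO library, and both genotypes stood above their own 0 h libraries. The genotype difference at 4 h was 2.68 ± 0.25 (95% interval 2.15 to 3.21, adjusted p 2.7e-06 by edgeR), the 82nd by p among 11123 genes. *Fosl2* entered the culture comparisons through its 4 h libraries, since its 0 h levels were too low. In WT it rose by 4.30 ± 0.33 (adjusted p 1.29e-09), a 19.7-fold change from a mean of 0.657 ± 0.360 to 13.7 ± 2.19 CPM (SD, n = 3). In KO it rose by 1.62 ± 0.43 (adjusted p 0.00847), from 0.679 ± 0.0846 to 2.13 ± 0.711 CPM. The rise was larger in WT by 2.68 ± 0.62 in the test of the difference between the culture changes (95% interval 1.39 to 3.97, edgeR adjusted p 0.00902). Leaving out the first KO replicate at 0 h took that last adjusted p to 0.0524, with the difference at 2.59.

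*Fos*, the founding immediate early gene of the family, lies at 85473890 to 85477273 on chromosome 12 (plus strand, 4 coding exons). At 0 h it stood at 21.4, 7.73 and 10.5 CPM in WT and at 10.1, 8.70 and 8.12 CPM in KO. The WT libraries spread widely and overlapped the KO libraries, with the first WT replicate far above the other two. The difference at 0 h, 0.53 ± 0.29 (adjusted p 0.467), came to 0.017 when that library was left out. At 4 h the levels were 4.03, 2.49 and 4.43 CPM in WT and 0.790, 1.20 and 1.49 CPM in KO. The KO values rest on 6, 10 and 11 reads, and *Fos* met the minimum for the 4 h genotype test through its WT libraries. All WT libraries at 4 h lay above all KO libraries at 4 h, and within each genotype the 4 h libraries lay below the 0 h libraries. The 4 h difference was 1.66 ± 0.37 (95% interval 0.88 to 2.45, adjusted p 0.00747), and without the third WT replicate at 4 h it was 1.48 with an adjusted p of 0.0532. *Fos* fell by 1.82 ± 0.32 in WT (adjusted p 0.000122) and by 2.94 ± 0.40 in KO (adjusted p 9.54e-06), changes of 3.53-fold and 7.68-fold. Without the first WT replicate at 0 h the change in WT was -1.30 ± 0.26 (adjusted p 0.000675). The 2 falls differed by 1.12 ± 0.53 (95% interval 0.01 to 2.24), which did not pass (adjusted p 0.282). Without the first WT replicate at 0 h that difference was 1.65 with an adjusted p of 0.0177, so this call depended on a single library.

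*Fosb*, an immediate early gene whose protein pairs with the Jun proteins as FOS does, was low and variable. It lies at 19302696 to 19310051 on chromosome 7 (minus strand). In WT it stood at 10.2, 1.79 and 2.33 CPM at 0 h and at 3.06, 1.25 and 0.843 CPM at 4 h. In KO the values were 4.55, 6.48 and 4.27 CPM at 0 h and 0.659, 2.03 and 2.17 CPM at 4 h. The genotypes overlapped at both times, and within KO each 4 h library lay below each 0 h library. Without the first WT replicate the 0 h difference was -1.29 ± 0.35 (adjusted p 0.0782), against -0.12 ± 0.48 with it. The genotype difference at 4 h, 0.00 ± 0.58 (95% interval -1.24 to 1.25), left room for a change of more than 2-fold either way. *Fosb* fell by 1.64 ± 0.58 in KO (adjusted p 0.0453) and by 1.52 ± 0.58 in WT (adjusted p 0.0490). Neither call was robust. The fall in WT was 0.34 (adjusted p 0.642) without the first WT replicate at 0 h, and the fall in KO lost its call in 7 of 13 alternatives, among them each of the 6 that leave out 1 library.

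The first WT replicate at 0 h was the highest of the 12 libraries for *Fos*, *Fosb*, *Junb* and *Jund*. Its summed level of 10 heat shock genes was 753 CPM, against 1257 and 1353 in the other WT libraries at 0 h, and its summed neutrophil markers were 55.9 CPM against 37.8 and 20.1. The second KO replicate at 0 h had a lower heat shock sum (704 CPM) and a higher neutrophil sum (123.2 CPM). Its *Fos* (8.70 CPM) and *Junb* (41.1 CPM) lay within the range of the other KO libraries at 0 h. Its *Fosb* (6.48 CPM) and *Jund* (55.4 CPM) were the highest of the KO libraries at 0 h. The part of the heat shock and neutrophil genes in the values above was not tested.

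The makeup of the Fos family at 4 h differed from that at 0 h, with more of it in *Fosl2*. Levels of different genes are compared here only per kilobase (CPM divided by the merged exon length). In WT at 0 h, *Fos* made up 88.4 ± 3.56% of the family sum, *Fosb* 10.2 ± 4.32% and *Fosl2* 1.32 ± 0.909% (SD, n = 3). In KO at 0 h the shares were 81.1 ± 3.65%, 17.4 ± 3.82% and 1.50 ± 0.212%. *Fos* was thus the main Fos family transcript of freshly sorted cells of both genotypes. At 4 h, *Fosl2* held 39.7 to 48.3% of the sum in the WT libraries and 20.4 to 24.6% in the KO libraries, ranges that do not overlap. By the longest annotated transcript in place of merged exons, an alternative added after the values were seen, these ranges were 44.1 to 53.5% and 22.6 to 26.8%. The KO shares at 4 h rest on few reads. The 3 libraries held 6, 10 and 11 of *Fos*, 5, 17 and 16 of *Fosb* and 10, 22 and 18 of *Fosl2*. *Fos* held 47.4 ± 4.11% in WT and 51.9 ± 6.11% in KO at that time by merged exons, and 40.03% in WT and 43.5% in KO by the longest transcript. The share of *Fosb* at 4 h was 8.45 ± 4.86% in WT and 25.3 ± 6.12% in KO by merged exons, and 10.5% and 31.2% by the longest transcript. In KO its mean share was thus above that of *Fosl2* (22.9 ± 2.16% by merged exons). The family sum went from 6.44 ± 3.81 to 3.24 ± 0.701 CPM per kilobase in WT and from 4.70 ± 0.455 to 0.973 ± 0.349 in KO. Without the first WT replicate, left out after the values were seen, the WT mean at 0 h was 4.28 CPM per kilobase. The 4 h sums lay below the 0 h sums in KO and overlapped them in WT. These sums and shares are given as a description and were not tested.

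**Figure D3:**
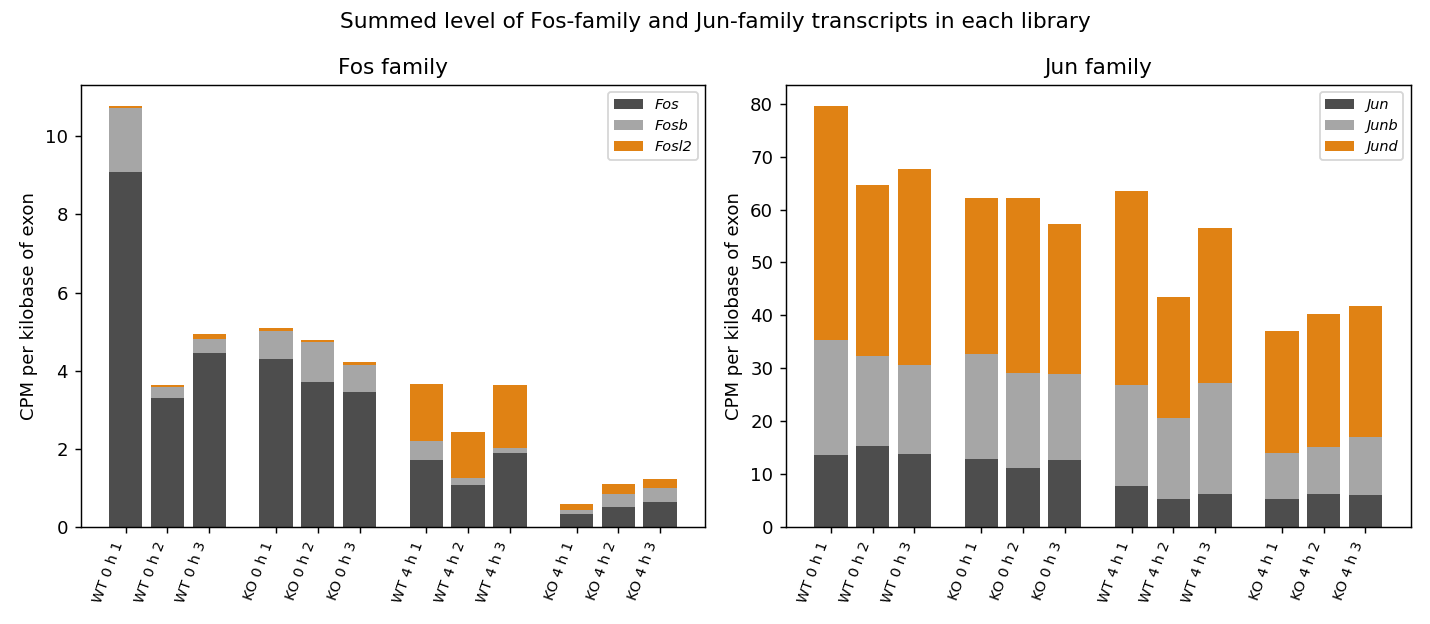
Summed level in CPM per kilobase of exon (vertical axes) of the Fos family and of the Jun family in each of the 12 libraries, stacked by gene. *Fosl2* is a thin cap at 0 h and a large part of the WT bars at 4 h, the KO bars at 4 h are the lowest of the Fos family, and *Jund* is the largest part of each Jun family bar.

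*Junb* encodes a Jun protein that activates weakly on its own and can oppose JUN. It lies at 84974484 to 84978718 on chromosome 8 (minus strand) with a single coding exon, and an exon of *Prdx2* on the other strand overlaps it. Whether reads were counted by strand is not given in the sources used here. Its levels at 0 h were 49.97, 39.2 and 38.6 CPM in WT and 45.7, 41.1 and 37.6 CPM in KO. At 4 h they were 43.7, 35.2 and 48.2 CPM in WT and 20.02, 20.3 and 25.3 CPM in KO. WT libraries at 4 h lay within about the range of the 0 h libraries, and the 3 KO libraries at 4 h lay below the other 9. The genotype difference was 0.02 ± 0.11 at 0 h (adjusted p 0.962) and 0.97 ± 0.13 at 4 h (95% interval 0.69 to 1.24, adjusted p 0.000103). *Junb* fell by 0.93 ± 0.13 in KO (adjusted p 2.25e-05), a 1.90-fold change. The culture changes differed by 0.93 ± 0.18 between the genotypes (95% interval 0.55 to 1.32, edgeR adjusted p 0.00206).

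*Jun*, the activating partner of FOS and a gene that its own protein can induce, fell in both genotypes. It has a single exon at 95049034 to 95052222 on chromosome 4 (minus strand), where the antisense gene *Junos* overlaps it. In WT it went from 43.4, 49.0 and 44.0 CPM to 24.7, 16.8 and 20.03 CPM, and in KO from 40.8, 35.7 and 40.2 CPM to 16.9, 19.96 and 18.9 CPM. Every 4 h library lay below every 0 h library. The falls were 1.15 ± 0.12 in WT (adjusted p 1.13e-07) and 1.07 ± 0.12 in KO (adjusted p 1.03e-06), and they differed by -0.08 ± 0.17 (95% interval -0.44 to 0.27). At 0 h, *Jun* was the one member tested whose genotypes did not overlap, with WT above KO by 0.21 ± 0.09, but its adjusted p was 0.360.

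*Jund*, a Jun protein present in resting cells and not an early response gene, was the most abundant member per kilobase in all 4 groups. It has a single exon at 70698949 to 70700616 on chromosome 8 (plus strand), with an antisense gene over part of it. Its levels were 73.8, 53.8 and 61.8 CPM in WT and 49.4, 55.4 and 47.2 CPM in KO at 0 h. At 4 h they were 61.4, 38.2 and 48.9 CPM in WT and 38.6, 41.96 and 41.6 CPM in KO. The genotypes overlapped at both times. The WT over KO difference was 0.31 ± 0.11 at 0 h (adjusted p 0.218) and 0.28 ± 0.13 at 4 h (adjusted p 0.207), where the first was 0.19 (adjusted p 0.380) without the first WT replicate at 0 h and the second passed (adjusted p 0.0140) without the second WT replicate at 4 h. *Jund* fell by 0.35 ± 0.13 in WT (adjusted p 0.0392), a call lost in 6 of 13 alternatives, one of which leaves out the first WT replicate at 0 h (-0.23, adjusted p 0.198). In KO the change was -0.32 ± 0.13 (adjusted p 0.0925).

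Within the Jun family, *Junb* held 26.2 ± 1.24% of the per-kilobase sum in WT and 29.7 ± 1.91% in KO at 0 h. At 4 h it held 29.9 to 37.03% in the WT libraries and 21.9 to 26.3% in the KO libraries. *Jun* went from 20.4 ± 3.32% to 11.8 ± 0.605% in WT and reached 14.7 ± 0.783% in KO. The Jun family sum was 54.5 ± 10.2 CPM per kilobase in WT and 39.7 ± 2.39 in KO at 4 h, and the Jun family sum was above the Fos family sum in each of the 12 libraries.

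*Batf*, whose protein pairs with Jun proteins in place of Fos and has no activation domain of its own, was at 13.7 to 18.7 CPM in WT and 15.9 to 19.9 CPM in KO over both times. It lies at 85686669 to 85709087 on chromosome 12, on the plus strand beyond *Fos*. Its libraries overlapped in every comparison, and the 4 h genotype difference was -0.19 ± 0.14 (95% interval -0.49 to 0.11). *Atf3*, a stress-induced factor that often represses as a homodimer, was near the limit of detection. It lies at 191170296 to 191218039 on chromosome 1 (minus strand). It had 0, 1 and 6 reads in the WT libraries and 2, 1 and 1 in the KO libraries at 0 h. At 4 h it had 7, 6 and 9 reads in WT and 12, 7 and 7 in KO. The KO libraries at 4 h all lay above those at 0 h. *Atf3* did not pass the minimum on counts in any comparison. With no minimum, edgeR gave a rise of 2.01 ± 0.72 in WT (adjusted p 0.0392) and 2.52 ± 0.79 in KO (adjusted p 0.0251), resting on these few reads, and genotype differences of 0.34 ± 1.15 at 0 h (adjusted p 0.940) and -0.16 ± 0.49 at 4 h.

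The small Maf proteins MAFF and MAFK have a zipper but no activation domain, and they pair with CNC factors such as BACH2 and NRF2 as well as with themselves. *Maff* (chromosome 15, 79346621 to 79359076, plus strand) stood at 3.71, 3.14 and 3.13 CPM in WT and 3.28, 4.42 and 2.62 CPM in KO at 0 h. At 4 h it stood at 6.13, 3.58 and 5.48 CPM in WT and 4.74, 6.22 and 4.89 CPM in KO. The KO libraries at 4 h lay above those at 0 h, while in WT they overlapped. The culture changes, 0.61 ± 0.27 in WT (adjusted p 0.0881) and 0.62 ± 0.28 in KO (adjusted p 0.111), did not pass, and the former passed (0.80, adjusted p 0.0392) without the second WT replicate at 4 h. *Mafk* (chromosome 5, 139791513 to 139802653, plus strand) was between 39.4 and 53.4 CPM in all 12 libraries. In KO its 4 h libraries (42.6 to 49.5 CPM) lay below its 0 h libraries (50.4 to 52.3 CPM), and in WT they overlapped. The KO change, -0.17 ± 0.10, did not pass (edgeR adjusted p 0.245). Its genotype difference at 4 h was -0.01 ± 0.10 (95% interval -0.22 to 0.21), the narrowest interval of the 9 members tested.

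**Figure D4:**
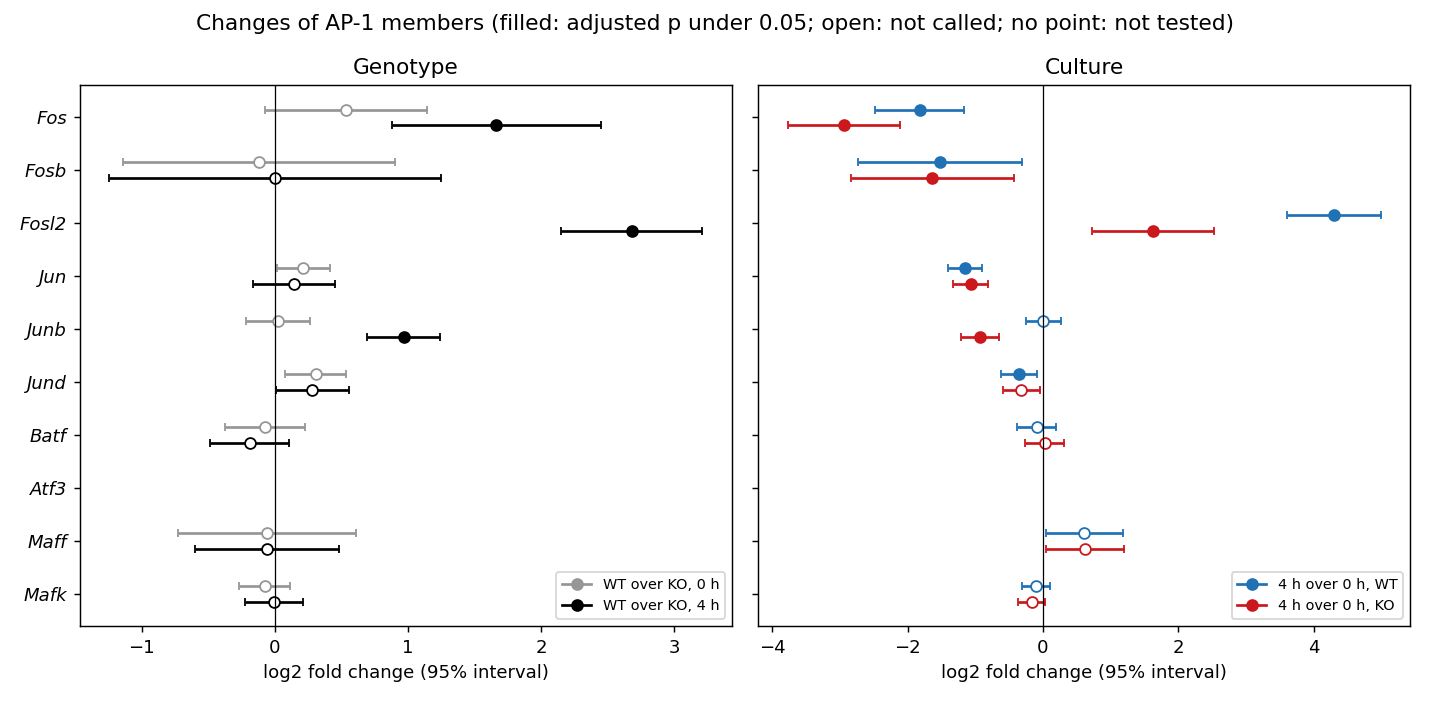
Log2 fold change with its 95% interval (horizontal axes) of each AP-1 gene, between genotypes on the left and over culture on the right, with filled points for an adjusted p under 0.05. *Fosl2*, *Fos* and *Junb* have filled 4 h genotype points to the right of 0, and *Fos* and *Jun* have filled culture points to the left of 0 in both genotypes.

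Counted over the family, 0 of 8 members tested differed between the genotypes at 0 h, where 0.987% of all 11345 genes passed. DESeq2 gave the same count of 0, and 2 members (*Jun* and *Jund*) had an unadjusted p under 0.05. The groups did not overlap for 1 of 8, against 18.3% of all genes. At 4 h, the level was higher in WT for 3 of 9 and lower for 0, against 5.22% and 5.67% of 11123 genes. Those 3 were also the ones whose groups did not overlap, against 27.8% of all genes. Of them, *Fos* and *Fosl2* met the minimum on counts at 4 h through their WT libraries, where they were high. The median difference of the 9 was 0.14, beside 0.00 for all genes, since the other 6 lay close to 0.

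Over culture, 1 member rose and 4 fell in each genotype. In WT, *Fosl2* rose and *Fos*, *Fosb*, *Jun* and *Jund* fell, against 15.1% of 11563 genes that rose and 18.0% that fell. In KO, *Fosl2* rose and *Fos*, *Fosb*, *Jun* and *Junb* fell, against 10.3% and 13.0%. The 0 h and 4 h libraries did not overlap for 3 of 9 members in WT and 8 of 9 in KO, where 40.8% and 41.8% of all genes did not. The culture change was higher in WT than in KO for 2 of 9 members, *Fosl2* and *Junb*, and lower for 0, against 2.45% and 3.94% of all genes. The genotype and culture comparisons share libraries, so their counts are not independent of each other.

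The order of the members per kilobase was led by *Jund* in every group, at 37.9 CPM per kilobase in WT and 30.4 in KO at 0 h and at 29.7 and 24.4 at 4 h. In WT, *Junb* came next at 18.5 at 0 h and 18.4 at 4 h, and its libraries did not overlap those of its neighbours. At 0 h, *Jun* (14.3), *Mafk* (12.5) and *Batf* (11.9) followed in WT, where *Mafk* overlapped both and *Jun* lay above *Batf*. Then came *Fos* (5.61), which stood clear of *Maff* (1.28) and *Fosb* (0.767, or 0.330 without the first WT replicate). *Atf3* (0.10) and *Fosl2* (0.0679) closed the order and overlapped. The KO order at 0 h was the same but for *Mafk* (13.2), *Batf* (12.4) and *Jun* (12.2), where *Batf* overlapped both and *Mafk* lay above *Jun*. At 4 h, *Jun* lay clear below *Mafk* and *Batf* in both genotypes, at 6.43 in WT and 5.82 in KO. In WT at 4 h, *Maff* (1.95), *Fos* (1.55) and *Fosl2* (1.42) overlapped. In KO at 4 h, *Junb* (9.50) overlapped *Mafk* (11.7) but not *Batf* (12.7). At the bottom of that group *Atf3* (0.521), *Fos* (0.493), *Fosb* (0.260) and *Fosl2* (0.220) overlapped their neighbours in this order, and *Fosl2* lay below *Fos* and *Atf3*. *Fosl2* ranked last in 3 groups by merged exons. Some ranks turned with the longest transcript as the length. These were *Jun* and *Batf* in WT at 0 h, and *Mafk* and *Batf* in KO at 0 h and in WT at 4 h. *Atf3* and *Fosl2* turned in KO at 0 h. *Fos* and *Fosl2* turned in WT at 4 h, where by that length *Fosl2* (2.10) stood above *Fos* (1.73).

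The genes whose log2 CPM ran most like that of *Fosl2* over the 12 libraries, among 11562 others, were *Gdi2* (Pearson's r 0.987), *Tgif1* (0.987), *Prdx6* (0.986), *Gfod1* (0.984) and *Phlpp1* (0.984). *Gdi2*, a Rab GDP dissociation inhibitor, had mean levels of 285 and 298 CPM in WT and KO at 0 h and of 916 and 443 CPM at 4 h. For *Fos* they were *Dusp2* (0.980), *Napsa* (0.968), *Zfp36l2* (0.967), *Cotl1* (0.966) and *Vpreb3* (0.963). *Dusp2*, a phosphatase that acts on MAP kinases, went from 196 and 199 CPM at 0 h to 131 and 89.3 CPM at 4 h in WT and KO. Among the members themselves r was 0.886 between *Fos* and *Jun*, 0.861 between *Fos* and *Junb* and 0.0042 between *Fosl2* and *Junb*. These values describe 12 libraries that form 4 groups and share their normalization.

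Genes around AP-1 were read from lists of what such factors need and what they pair with. Genes of these lists that are named beside counts over culture were picked after their values were seen. The list counts stand beside the shares of all genes that passed: 5.22% higher in WT and 5.67% higher in KO at 4 h, 15.1% rising and 18.0% falling in WT culture, and 10.3% and 13.0% in KO culture. Among 28 other bZIP partners, 20 were tested at 4 h and 1 differed: *Bach2*, a repressor that pairs with small Maf proteins, was higher in KO (1116 against 790 CPM, -0.50 ± 0.06, adjusted p 6.74e-05). *Bach2* was at 815 and 801 CPM in WT and KO at 0 h, and its culture changes differed by -0.52 ± 0.08. In the same list, *Atf1* was the 1 gene of 20 that differed at 0 h (0.54 ± 0.11, adjusted p 0.0286), named after its value was seen. Over culture, 4 of 21 fell in WT (*Atf1*, *Xbp1*, *Atf6* and *Atf4*) and 4 rose (*Cebpz*, *Bach1*, *Mafg* and *Nfe2*). In KO, 3 fell (*Xbp1*, *Atf6* and *Atf4*) and 3 rose (*Atf2*, *Cebpz* and *Bach2*).

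Of 34 genes of the MAP kinase cascade, which phosphorylates Jun and the factors that drive *Fos*, 32 were tested and 1 differed between the genotypes at 4 h. This was *Rps6ka5*, which encodes MSK1, a kinase of cAMP response element binding protein and histone H3. It stood at 45.9 CPM in WT and 62.0 in KO (-0.44 ± 0.10, adjusted p 0.0083), and the call was lost without the third WT or the first KO replicate at 4 h (adjusted p up to 0.0547). The median difference of the 32 was 0.00. Over culture 7 of the 32 rose and 10 fell in WT (all genes 15.1% and 18.0%), and 5 rose and 7 fell in KO (all genes 10.3% and 13.0%). Those 5 were *Map2k7*, *Map3k5*, *Map2k4*, *Mapk8* and *Rps6ka5*. *Mapk8*, which encodes the Jun kinase JNK1, rose by 0.33 ± 0.08 in WT (adjusted p 0.00292) and by 0.33 ± 0.08 in KO (adjusted p 0.00567). The list of serum response factor and its cofactors held 6 genes: *Srf*, *Elk1*, *Elk3*, *Elk4*, *Mkl1* and *Mkl2*. Of these, 0 differed at either time and 0 in the test of the culture changes, all by edgeR. *Srf* itself fell by 0.60 ± 0.08 in WT (adjusted p 1.01e-05) and by 0.82 ± 0.09 in KO (adjusted p 4.21e-07).

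Partners at composite elements passed in both directions. At 4 h the test gave 3 of 9 with the higher level in WT and another 3 with the higher level in KO. *Ets2* stood at 224.5 CPM in WT and 80.3 in KO after 28.3 and 29.5 at 0 h (1.48 ± 0.09, adjusted p 1.73e-08), and *Irf4* was higher in WT by 0.23 ± 0.06 (adjusted p 0.0344), a call lost in 5 of 13 alternatives. *Nfatc1* (-0.34 ± 0.06, adjusted p 0.00237) and *Irf8* (-0.33 ± 0.06, adjusted p 0.00179) were lower in WT. *Nfatc3* (0.21) and *Nfatc2* (-0.31) were the others that passed. The culture changes differed for *Ets2* (1.56 ± 0.21, adjusted p 3.25e-05) and for *Nfatc1* (-0.37 ± 0.08, adjusted p 0.00621).

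Of 11 genes that act on the turnover of AP-1 mRNA or protein, 2 were higher in WT at 4 h. Both encode proteins that bind AU-rich elements and promote decay of early response mRNAs. *Zfp36l1* was at 723 CPM in WT and 547 in KO (0.40 ± 0.05, adjusted p 0.000118) and *Zfp36l2* at 176 and 136 (0.38 ± 0.07, adjusted p 0.00125). The culture change of *Zfp36l1* was higher in WT by 0.31 ± 0.07 (adjusted p 0.011). *Zfp36*, which encodes tristetraprolin, fell in both genotypes, by 0.63 ± 0.07 in WT and 0.54 ± 0.07 in KO.

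Of 16 described targets of AP-1, many of them known from other tissues, 7 were tested at 4 h and 1 differed: *Vim*, an intermediate filament gene, was lower in WT (83.6 against 108.9 CPM, -0.37 ± 0.08, adjusted p 0.00696). Over culture 2 of 7 rose and 3 fell in WT (all genes 15.1% and 18.0%), and 0 rose and 3 fell in KO (all genes 10.3% and 13.0%). *Hmox1*, *Vim* and *Plaur* fell in both genotypes, and *Vim* fell by 1.85 ± 0.07 in WT. Of 10 heat shock genes, 3 were higher in WT at 4 h, *Hspa8* by 0.28 ± 0.07, *Hsph1* by 0.25 ± 0.07 and *Dnajb1* by 0.25 ± 0.06. The first of these calls was lost in 4 of 13 alternatives and the second in 6.

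Markers of other cells were low beside those of B cells. Summed follicular B cell markers, 7 of 8 listed, ranged from 7257 to 8103 CPM at 0 h, from 5391 to 5643 in WT at 4 h and from 6370 to 6563 in KO at 4 h. T cell markers (8 of 9) were at 19.2 to 29.3 CPM in WT and 23.3 to 37.4 in KO at 4 h, macrophage markers (6 of 10) at 25.8 to 41.6 and 31.6 to 46.9, and neutrophil markers (4 of 7) at 21.3 to 54.7 and 20.5 to 111.9. These summed ranges overlap between the genotypes at 4 h. Single markers did not all overlap, as *Lck* was at 11.5 to 16.2 CPM in WT and 20.02 to 26.3 in KO. By edgeR 1 of 4 T cell markers tested was higher in KO, and 0 of 5 macrophage and 0 of 3 neutrophil markers passed (all genes 5.22% higher in WT and 5.67% in KO). Macrophage markers were at 60.0 to 71.8 CPM at 0 h, above their 4 h range, and their part in the falls of *Fos* and *Jun* was not tested. Plasma cell markers (3 of 5) were at 45.8 to 60.7 CPM in WT and 31.6 to 63.02 in KO at 4 h, and erythroid and platelet markers (3 of 6) at 12.3 to 17.6 and 9.35 to 28.4. The plasma cell marker *Sdc1* lay higher in WT at 4 h (21.3 to 29.03 CPM, against 15.9 to 18.9 in KO), while 0 of 3 plasma cell markers passed between the genotypes by edgeR. Marginal zone B cell markers (7 of 7) stood at 257 to 335 CPM in WT and 363 to 367 in KO at 4 h, without overlap. The sums of follicular B cell and marginal zone markers thus differed in range between the genotypes at 4 h. Of those tested, 4 of 7 and 2 of 6 were higher in KO and 0 higher in WT by edgeR (all genes 5.67% and 5.22%). Against the sums, *Cd79a* (740 to 947 CPM in WT, 703 to 723 in KO) and *Dtx1* (72.6 to 79.0 and 62.5 to 68.6) lay higher in WT. The part of these markers in the differences of *Fosl2*, *Fos* and *Junb* was not tested.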

How the data were processed

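RNA of sorted follicular B cells was made into libraries with the NuGEN Ovation, KAPA Hyper and NEXTflex kits and sequenced as single-end reads. The authors aligned reads to mm10 with STAR and deposited raw counts per gene from HTSeq, with 1 table per time (rows sum to at least 10). Versions, annotation and strand setting are not given in the sources used here. Symbols were used as deposited.

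From these counts, edgeR 4.0.16 (R 4.3.3) fitted the quasi-likelihood model with TMM scaling and filterByExpr (minimum count 10), with Benjamini-Hochberg adjustment over all genes tested. Genotype was tested within the 6 libraries of a time. Culture changes and their difference came from 1 fit of all 4 groups over genes in both tables, so levels across times rest on separately deposited tables. The test was checked on simulated counts. DESeq2 1.42.0 and other settings were alternatives. Per-kilobase levels used merged GENCODE M21 exons, which matched 89.9% of symbols. Replicates differed by more than sampling noise (chi-square per degree of freedom 1.999 to 9.882).

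Members and lists were chosen with earlier results of these data known. All 10 members are named, and from each list the 2 genes with the highest absolute change in each direction among those that passed between genotypes at 4 h. The 5 genes most like *Fosl2* and *Fos* by Pearson's r of log2 CPM (prior count 2) are also named.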

Additional observations from a re-analysis of the deposited data

Results flagged for a closer look

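For 2 AP-1 genes the change over 4 h of culture differed between the genotypes in the test of the difference itself (edgeR). *Fosl2* rose by 2.68 ± 0.62 more in WT than in KO on the log2 scale (adjusted p 0.00902), with the 3 WT libraries at 4 h above the 3 KO libraries. For *Junb* the culture change was higher in WT by 0.93 ± 0.18 (adjusted p 0.00206), with the 3 KO libraries at 4 h below all others. Groups of 3 libraries are too small for a test of single outlying libraries.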

How the results depend on the processing

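The calls were recomputed under 13 alternatives per comparison (18 for the difference between the culture changes). The 3 members higher in WT at 4 h passed under library totals alone, RLE scaling, DESeq2, no minimum on counts, *Rn45s* left out, a joint fit and a replicate block. Leaving out 1 library gave 2 to 4 calls there (2 without the third WT library at 4 h), 0 at 0 h, 4 to 4 in KO culture, 3 to 5 in WT culture (3 without the first WT library at 0 h and 3 without the third WT library at 4 h) and 1 to 3 for the difference between the culture changes (1 without the first KO library at 0 h, 3 without the first WT library at 0 h). With only the 2 groups compared, 3 members passed in WT culture against 5, since *Fosb* and *Jund* no longer did. The cause was not tested.

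Library totals alone turned 5 small changes: *Junb* at 0 h (-0.0084), *Fosb* at 4 h (-0.021), *Batf* and *Mafk* in WT culture (0.014 and 0.0041) and *Maff* in the difference between culture changes (0.0070). This scaling moved the median of all genes by 0.11 in WT culture and 0.09 in KO culture.

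Leaving out 1 library changed the sign of values near 0. At 0 h the ranges were -1.29 to 0.26 for *Fosb*, -0.10 to 0.10 for *Junb* and -0.22 to 0.16 for *Maff*. At 4 h they were -0.68 to 0.40 for *Fosb*, -0.0048 to 0.25 for *Jun*, -0.20 to 0.12 for *Maff* and -0.11 to 0.079 for *Mafk*. Over culture they were -0.11 to 0.13 for *Junb* in WT and -0.057 to 0.10 for *Batf* in KO. For the difference between culture changes they were -0.56 to 1.29 for *Fosb*, -0.22 to 0.031 for *Jun*, -0.20 to 0.11 for *Jund*, -0.22 to 0.17 for *Maff* and -0.043 to 0.15 for *Mafk*.

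Replicate numbers are shared across groups, but the sources used here do not say that they mark the same mouse. Same-numbered libraries correlated by -0.0995 to 0.0726 between genotypes and by -0.0425 to 0.152 between times in their deviations from group means, so they were not treated as pairs. Between 0 h and 4 h each WT library was most like its own number, a hint from the data alone, and this did not hold for the first KO library. A replicate block gave 0, 3, 5, 6 and 2 calls in the 5 comparisons, among them all calls of the unblocked fits, with *Jund* added in KO culture (adjusted p 0.0108) and *Fosb* at 4 h turned to -0.011.

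Depth limits *Atf3* and, at 0 h, *Fosl2*, whose libraries held at most 12 reads: with no minimum on counts the SE of the 0 h genotype difference was 1.15 and 0.68 (log2). It also limits *Fos* in KO at 4 h, with 6, 10 and 11 reads.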
